A study of Caenorhabditis elegans with 23 samples.

Results

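Wild-type N2 animals of *C. elegans* were cultured in both plate sets of this study, beside a deletion allele of *sid-1* (the deletion set) and beside a nonsense allele and its revertant (the nonsense and revertant set). The 3 N2 libraries of the deletion set were compared here with the 3 N2 libraries of the nonsense and revertant set, 6 of the 23 libraries of the series. N2 is the laboratory wild type, with no allele or treatment, and both groups were whole mixed-stage animals. The labels give both sets the same plate culture, RNAzol extraction, TruSeq Stranded mRNA preparation and paired-end reads, and the methods of the study describe 3 biological replicates per strain, each from a pellet pooled from non-starved but crowded plates, with polyA+ RNA sequenced on a HiSeq X10. Nothing in the labels separates a set from its culture, extraction or sequencing, so these cannot be told apart. The other strains of the sets, the deletion allele *sid-1(jam113)* in the deletion set, and the nonsense allele *sid-1(jam80)* with its reversion to wild-type sequence, *sid-1(jam86)*, in the nonsense and revertant set, add 9 libraries that were set beside the wild types.

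A mixed-stage plate holds embryos, the larval stages and egg-laying adults, and RNA from such a plate is a mixture in proportions that depend on the age structure of the population. Larvae shed their cuticle at each molt, and the epidermis makes the collagens of the next cuticle in a burst of transcription before the molt, together with proteases, cuticlins and hedgehog-related proteins that the molt requires. Sperm genes are transcribed mainly in the last larval stage of hermaphrodites, yolk genes in the adult intestine, eggshell and maternal genes in the adult gonad, and a small group of zygotic genes in the early embryo. In bulk RNA, fewer animals or cells of a kind and less RNA from each cannot be told apart.

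The 6 wild-type libraries held 71018809, 54780478 and 79287591 estimated counts in the deletion set, against 35320382, 57344120 and 48455767 in the nonsense and revertant set. The defining genes of the intestine (*elt-2*), body-wall muscle (*myo-3*), neurons (*rab-3*), germ cells (*pgl-1*), oocytes (*rme-2*), sperm (*gsp-3*) and adult cuticle (*col-19*) were detected in every one of these libraries. Along the first principal component, which held 89.94% of the variance, the deletion-set libraries lay at 30.66, 35.59 and 25.69 and the nonsense and revertant set libraries at -29.39, -31.78 and -30.77. The libraries thus fell into their sets with no overlap. Fragment length, taken from the effective lengths of transcripts over 3000 bases, also separated the sets. It was 225.0, 222.9 and 217.8 bases in the deletion-set N2 libraries, against 157.0, 141.3 and 136.3 bases in the N2 libraries of the nonsense and revertant set. Since short transcripts yield few long fragments, counts scaled for this length difference are given beside the medians of lists of short genes and beside some single genes, and the part of fragment length in the other results was not tested. Genes of 500 bases or fewer had a median log2 fold change of -0.19 on the estimated counts and 0.04 on the length-scaled counts.

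**Figure D1:**
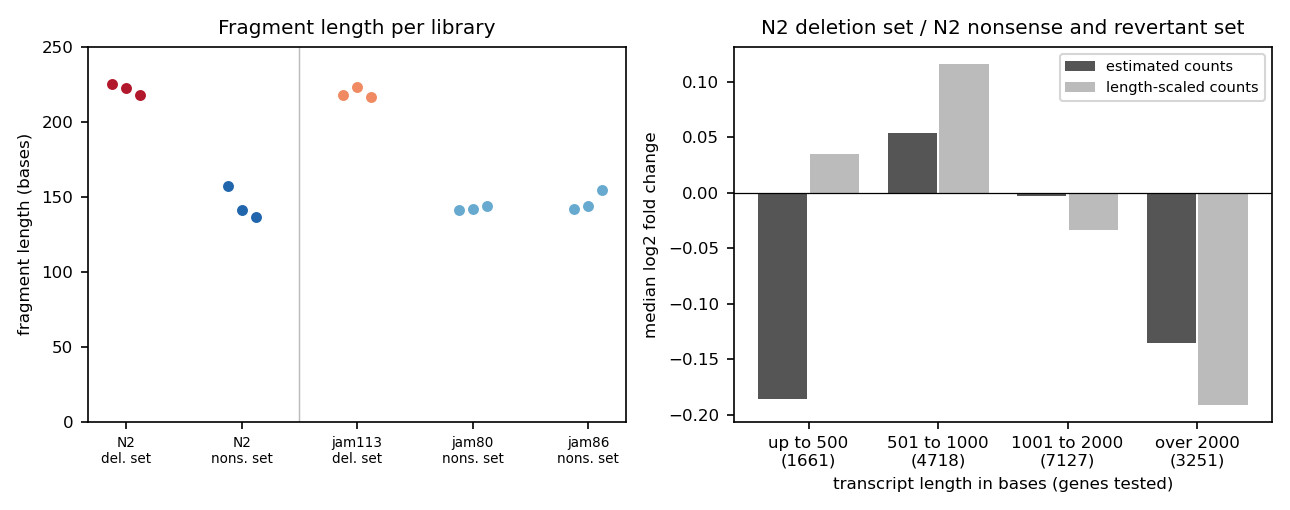
Fragment length in bases of each library of the 5 groups of both sets (left, 3 points a group) and the median log2 fold change between the wild types for genes grouped by transcript length, on estimated counts and on length-scaled counts (right, dark and light bars). Fragments were longer in every library of the deletion set than in any library of the nonsense and revertant set, and the shortest genes had a median of -0.19 before and 0.04 after length scaling.

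Of 16757 genes tested, 10797 (64.4%) differed between the wild types at an adjusted p under 0.05 (edgeR's quasi-likelihood test), 5192 higher in the deletion set (31%) and 5605 lower (33.4%). The median log2 fold change (deletion set over nonsense and revertant set, as throughout) of all genes tested was -0.03. With so many genes past the test, membership in that count separates little, and 11586 genes (69.1%) had values that did not overlap between the sets. Changes of at least 1 on the log2 scale, 2-fold or more, were therefore counted as well. They numbered 1159 genes higher (6.92%) and 2011 lower (12%). These shares, and the 31% higher and 33.4% lower of all calls, are the background for the gene families below. Called below means past the adjusted p threshold. Genes named for the size of their change were chosen among those whose sets did not overlap, so their lack of overlap is no result. An exact permutation test of 3 libraries against 3 cannot give a two-sided p below 0.1, so calls on single genes rest on the fit across all genes. Nearly identical family members (the sperm, collagen, *abu*, heat shock and MATH genes among them) share reads that were divided between copies by estimation, and the value of one copy is less certain than that of its family.

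The 36 gene lists of stages, tissues and families held 2046 distinct genes, of which 375 did not pass the filter on low counts. Some lists were called mostly in 1 direction and others in both. Cuticle collagens, molting genes, hedgehog-related genes, *abu* and *pqn* genes, heat shock genes and the markers of muscle, neurons and intestine were mostly lower. Early zygotic genes, *bath* genes, lysosomal lipases and the mitochondrial genome were mostly higher. Nuclear hormone receptors, insulin-like peptides, neuropeptides, pharyngeal genes and glutathione S-transferases had calls in both directions. So had all genes tested, with 31% called higher and 33.4% lower, so calls in both directions set no family apart. Oocyte and germline genes had medians within 0.2 of 0.

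**Figure D2:**
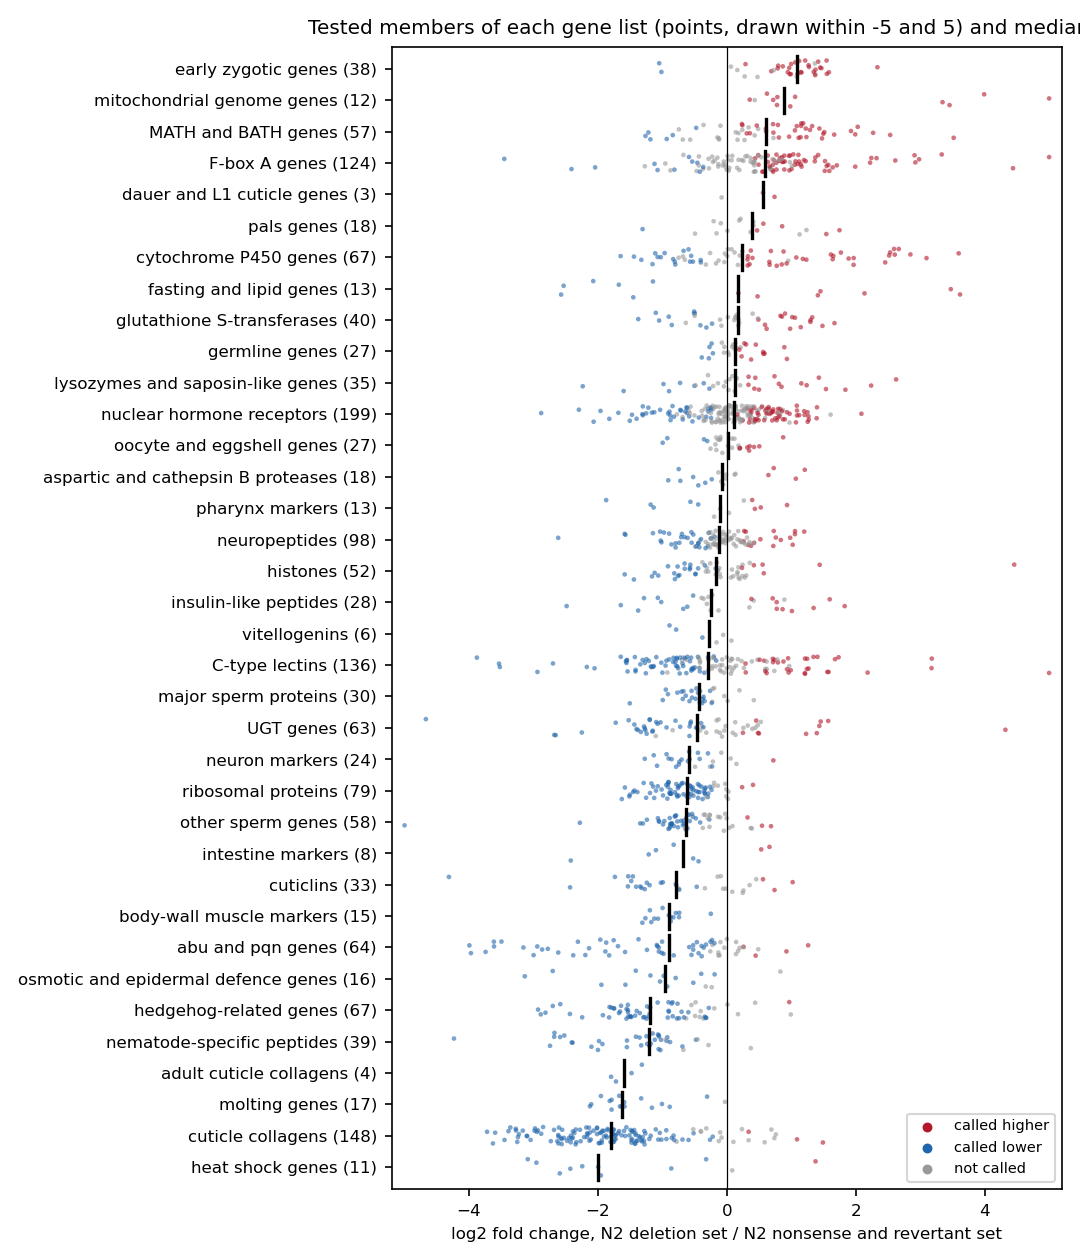
Log2 fold change between the wild types (x axis, deletion set over nonsense and revertant set) of every tested member of the 36 gene lists (rows, number tested in parentheses), red where called higher, blue where called lower and grey where not called, with the median of each list as a bar and points drawn within -5 and 5. Medians ran between -1.997 for the heat shock genes and 1.09 for the early zygotic genes, with the cuticle collagens at -1.79.

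Cuticle collagens, the main structural proteins of the cuticle, were lower in the deletion set across most of the family. Summed over its 173 genes, the family reached 13718, 10968 and 17249 CPM (counts scaled to a common library size with TMM factors and not corrected for gene length) in the deletion-set N2 libraries, against 49068, 49545 and 47844 CPM in the N2 libraries of the nonsense and revertant set. Mean sums were 13978 ± 3149 and 48819 ± 877 CPM (SD, n = 3 each), 3.49 times lower in the deletion set. Of 148 collagens that passed the filter on low counts, 130 were called lower and 3 higher, and 120 (81.1%) were lower by at least 1 on the log2 scale. The median log2 fold change was -1.79, with members between -3.72 and 1.49. *col-41*, a cuticle collagen (chromosome X, 15175032 to 15176481, WBcel235), had 6.04, 4.66 and 9.75 CPM in the deletion set and 92.3, 88.7 and 89.7 CPM in the nonsense and revertant set, a log2 fold change of -3.72 (SE 0.19, edgeR quasi-likelihood adjusted p = 7.25e-09). *col-180* had 9.03, 6.03 and 14.2 CPM, against 131, 118 and 114 CPM, and *col-107* had 13.02, 12.6 and 24.7 CPM, against 183, 179 and 187 CPM. In all 3 of these genes the highest deletion-set library was several times below the lowest library of the other set. They were chosen for large changes without overlap, so this gap is no separate result. *col-170* was lower by a similar ratio, with a log2 fold change of -3.59.

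Collagens whose mutants change body shape or blister the cuticle (the *dpy*, *sqt*, *rol*, *bli* and *lon* genes) were lower like the larger family. Of 18 tested, 17 were called lower, 16 of them by at least 1, and the median log2 fold change was -1.75, beside -1.80 for the 130 *col* genes tested. The 3 collagens called higher, named after their values were seen, were *dpy-17* (79.5, 95.0 and 92.2 CPM, against 42.2, 40.4 and 42.2 CPM), *col-121* (3.84, 4.68 and 4.62 CPM, against 1.6, 1.43 and 1.64 CPM) and *col-74* (11.4, 16.2 and 15.3 CPM, against 10.5, 12.6 and 10.5 CPM). These rose while most of the family fell, with log2 fold changes of 1.09, 1.49 and 0.34. The deletion-set libraries also differed among themselves. Replicate 3 had the highest value of the 3 for 129 of the 148 tested collagens and replicate 2 the lowest for 110, whereas in the nonsense and revertant set no replicate was highest for more than 61.

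Collagens of the adult cuticle were lower too. *col-19*, which is switched on in the adult epidermis, had 629, 483 and 695 CPM in the deletion set, against 1539, 1501 and 1446 CPM in the nonsense and revertant set (log2 fold change -1.32, SE 0.12, edgeR quasi-likelihood adjusted p = 6.25e-07). *bli-1*, a collagen of the struts of the adult cuticle, had 15.9, 12.96 and 18.3 CPM, against 51.8, 44.3 and 59.0 CPM. Its partner *bli-2* had 25.99, 22.4 and 29.1 CPM, against 73.5, 60.3 and 81.3 CPM. *col-7* had a log2 fold change of -1.80, and the sums over the 4 genes were 691, 533 and 768 CPM, against 1738, 1670.2 and 1656 CPM. For the cuticle of dauer and first-stage larvae, 3 of 5 genes passed the filter, and both called ones were higher. *cut-3*, a cuticlin of the first larval stage and embryo, had 8.3, 14.3 and 10.97 CPM, against 8.36, 6.57 and 7.8 CPM (log2 fold change 0.56, edgeR quasi-likelihood adjusted p = 0.0108), with the lowest deletion-set library inside the range of the other set. *cut-5* had 0.698, 1.09 and 1.14 CPM, against 0.668, 0.439 and 0.663 CPM. Without replicate 2 of the nonsense and revertant set neither was called (edgeR quasi-likelihood adjusted p = 0.0741 for *cut-3* and 0.141 for *cut-5*), and without replicate 3 of the deletion set *cut-5* was not (0.0972).

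Cuticlins, the insoluble proteins of the cuticle, had a median log2 fold change of -0.79, with 19 of 33 tested called lower (14 by at least 1) and 3 higher. *cut-2* had 4.14, 5.52 and 9.97 CPM in the deletion set and 143, 124 and 125 CPM in the nonsense and revertant set. This was the largest fall of the list, a log2 fold change of -4.31 (SE 0.23, edgeR quasi-likelihood adjusted p = 1.01e-08). *cutl-23*, *cutl-18* and *cut-4* were lower by 3.33-, 2.9- and 2.89-fold.

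Genes needed to shed the old cuticle were lower in the deletion set. Of 17 molting genes, all of them tested, 16 were called lower, 14 (82.4%) by at least 1, and the median log2 fold change was -1.63. *fbn-1*, a fibrillin-like protein of the epidermal matrix, had 6.44, 7.52 and 8.51 CPM, against 30.2, 33.2 and 34.3 CPM. *qua-1*, a hedgehog-related gene required for molting, had 9.73, 10.7 and 12.4 CPM, against 45.8, 41.5 and 53.4 CPM. *mlt-11*, a protease inhibitor, had 19.4, 23.5 and 29.04 CPM, against 82.1, 78.5 and 92.2 CPM. In each of these the highest deletion-set library was below the lowest library of the other set by more than 2-fold. These genes too were chosen for large changes without overlap. *lin-42*, the period-like gene whose RNA cycles with the molts, had 9.86, 12.97 and 17.2 CPM in the deletion set, against 47.4, 48.7 and 58.5 CPM in the nonsense and revertant set (log2 fold change -1.95, SE 0.16, edgeR quasi-likelihood adjusted p = 2.17e-07). The one molting gene not called, *nhr-23*, a nuclear receptor that drives molting genes in the epidermis, had 63.2, 58.6 and 65.1 CPM, against 60.2, 66.2 and 63.6 CPM, a log2 fold change of -0.03 (SE 0.07).

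Hedgehog-related genes code for secreted proteins of the nematode epidermis and for patched-related receptors, many of which take part in molting. Of 82 members, 67 were tested, 54 were called lower (37 by at least 1) and 1 higher, with a median log2 fold change of -1.20. Medians were -1.28 over 9 warthog genes, -1.24 over 13 groundhog genes, -1.13 over 20 ground-like genes and -0.91 over 24 patched-related receptors. Called lower were 9, 10, 13 and 21 of them in that order. *grl-16* had 26.8, 23.97 and 43.0 CPM, against 183, 188 and 190.0 CPM, and *grd-6* had 3.3, 2.33 and 4.19 CPM, against 24.04, 27.8 and 23.2 CPM. *grl-21* and *grl-27* had log2 fold changes of -2.81 and -2.89. The receptor gene called higher, *ptr-22*, named after its values were seen, had 1.91, 4.19 and 3.16 CPM, against 1.34, 1.66 and 1.66 CPM.

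The *abu* genes code for glutamine- and asparagine-rich proteins of the pharyngeal cuticle, which is also shed at each molt. All 12 *abu* genes tested (of 14) were called lower, each by at least 1, with a median log2 fold change of -2.90. *abu-7* had 1.36, 0.69 and 2.14 CPM, against 19.4, 25.2 and 23.4 CPM (log2 fold change -3.99, SE 0.25, edgeR quasi-likelihood adjusted p = 3.39e-08), and *abu-8* had 2.82, 1.99 and 4.08 CPM, against 35.2, 45.1 and 39.5 CPM. The *pqn* genes, named for the same amino acid bias but with many unrelated roles, were less uniform. Of 52 tested, 34 were called lower (19 by at least 1) and 4 higher, with a median of -0.45. *pqn-57* (0.504, 0.675 and 0.599 CPM, against 8.94, 9.22 and 9.52 CPM) and *pqn-54* (log2 fold change -3.61) were at the low end.

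**Figure D3:**
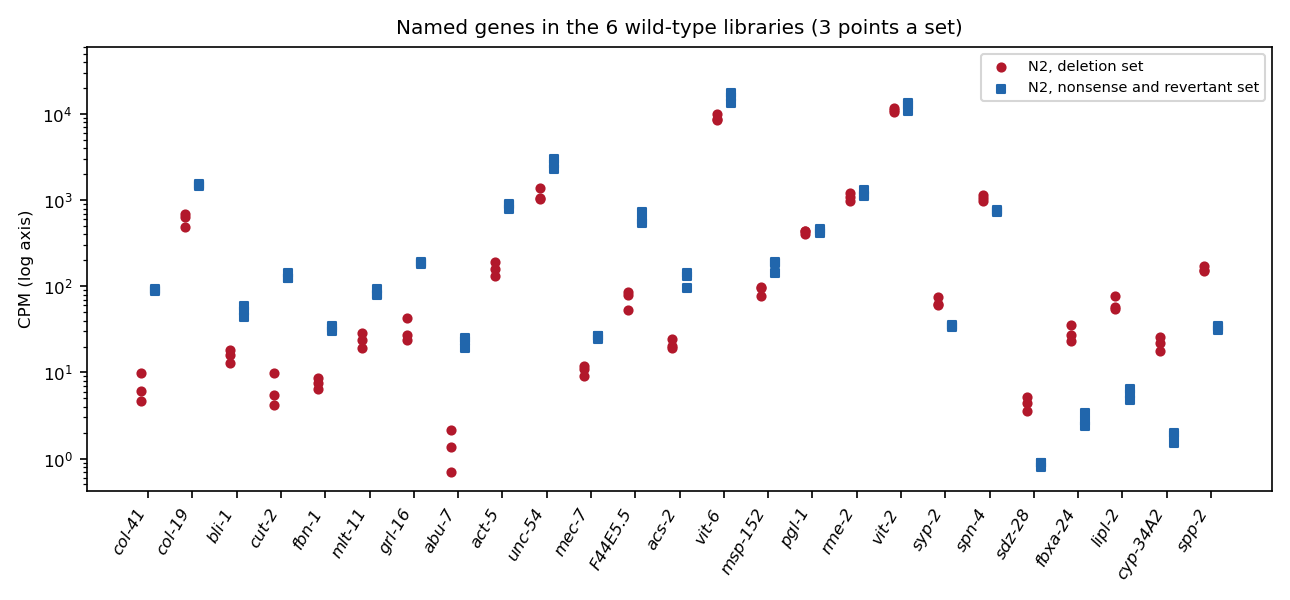
CPM (log axis) of 25 genes named in the text in the 3 N2 libraries of the deletion set (red circles) and the 3 N2 libraries of the nonsense and revertant set (blue squares). Genes of cuticle, molting, muscle and heat shock sit lower in the deletion set, *pgl-1*, *rme-2* and *vit-2* overlap between the sets, and *syp-2*, *spn-4*, *sdz-28*, *fbxa-24*, *lipl-2*, *cyp-34A2* and *spp-2* sit higher in the deletion set.

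Most markers of body-wall muscle, neurons and intestine were lower in the deletion set. All 15 body-wall muscle genes were called lower, 6 of them by at least 1, with a median log2 fold change of -0.90 and sums of 5906, 5191 and 6795 CPM, against 10667, 12178 and 11278 CPM. *unc-54*, the major muscle myosin, had 1062, 1021 and 1394 CPM, against 2331, 2981 and 2606 CPM (log2 fold change -1.19, SE 0.13, edgeR quasi-likelihood adjusted p = 3.64e-06). *unc-15*, the paramyosin of thick filaments, had 525, 493 and 677 CPM, against 1244, 1546 and 1394 CPM. *myo-3*, the minor myosin, had 116, 102.3 and 134 CPM, against 191, 217 and 199.7 CPM. *mup-2*, a troponin T, and *deb-1*, the vinculin of dense bodies, had log2 fold changes of -1.26 and -1.17, the second of which was -0.61 on length-scaled counts.

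Among 24 neuronal markers, 17 were called lower (3 by at least 1) and 1 higher, with a median log2 fold change of -0.58. *mec-7*, the beta-tubulin of touch neurons, had 10.96, 9.2 and 11.9 CPM, against 26.1, 24.7 and 26.5 CPM. *unc-13*, which primes synaptic vesicles, had 7.72, 12.3 and 8.98 CPM, against 19.98, 22.2 and 21.01 CPM. The touch-neuron tubulin *mec-12* and the syntaxin-binding gene *unc-18* were lower by 2.12- and 1.91-fold. The synaptic vesicle gene *rab-3* had 5.17, 7.13 and 6.84 CPM, against 5.95, 6.26 and 6.05 CPM, and was not called (log2 fold change 0.06, SE 0.13, edgeR quasi-likelihood adjusted p = 0.711). Of 98 neuropeptide precursors tested, 16 were called higher (16.3%) and 30 lower (30.6%), beside 31% and 33.4% of all genes tested. Their median was -0.12 and, on length-scaled counts, 0.03. All 7 members lower by at least 1 were *nlp* genes, and those lowest were *nlp-24* (42.5, 33.0 and 43.9 CPM, against 235.2, 247 and 247 CPM) and *nlp-33* (69.8, 80.4 and 87.3 CPM, against 195, 245 and 270.1 CPM), the second of them an antimicrobial peptide gene of the epidermis. Of 30 FMRFamide-like *flp* genes, 8 were called higher and 8 lower. Among them *flp-14* had the largest rise, at 14.7, 14.2 and 15.3 CPM, against 7.37, 6.66 and 5.19 CPM.

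Of 8 intestinal markers, 6 were called lower and 2 higher. *act-5*, the actin of intestinal microvilli, had 161, 131 and 190.0 CPM in the deletion set, against 786, 874 and 908 CPM in the nonsense and revertant set, a log2 fold change of -2.42 (SE 0.12, edgeR quasi-likelihood adjusted p = 7.25e-09). *elt-2*, the GATA factor of intestinal fate, had 5.49, 5.71 and 6.03 CPM, against 9.06, 10.6 and 10.7 CPM, with no overlap. The peptide transporter gene *pept-1* and the acid phosphatase gene *pho-1* were lower by 2.14- and 2.32-fold. The esterase gene *ges-1* and the GATA factor gene *elt-7*, named after their values were seen, were the 2 that rose, with log2 fold changes of 0.66 and 0.53. Of 13 pharyngeal genes, 4 were called higher (30.8%) and 5 lower (38.5%), near the 31% and 33.4% of all genes tested. Within the gland-expressed *phat* family, *phat-1* had 1.47, 1.23 and 1.72 CPM, against 5.52, 5.4 and 5.3 CPM, whereas *phat-8* had 37.4, 32.7 and 31.4 CPM, against 18.5, 20.8 and 13.5 CPM. *phat-4* and *phat-2* were lower, with log2 fold changes of -1.18 and -1.14.

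Germline genes differed little in sum. The 27 genes of P granules, germ cell fate and the meiotic axis summed to 8670.3, 7561 and 8447 CPM, against 7559, 8489.7 and 7947 CPM, with overlap between the sets, and their median log2 fold change was 0.13. None of the 11 called higher (40.7%) or the 5 called lower (18.5%) moved by 1 or more. Of all genes tested, 31% were called higher and 33.4% lower. *pgl-1*, a P granule core gene, had 437, 402 and 444 CPM, against 417, 457 and 441 CPM, and was not called (log2 fold change -0.04, SE 0.08, edgeR quasi-likelihood adjusted p = 0.651). Genes of the meiotic axis and synaptonemal complex, which are used as germ cells enter meiosis, were mostly higher. Of 9 such genes 6 were called higher and none lower, with a median of 0.56. *syp-2*, a synaptonemal complex gene, had 75.0, 62.2 and 60.8 CPM, against 35.4, 34.2 and 33.8 CPM, and its partner *syp-3* had 47.8, 44.9 and 42.5 CPM, against 25.6, 23.8 and 23.1 CPM. *him-3* and *rec-8*, of the meiotic axis and cohesin, had log2 fold changes of 0.59 and 0.57. Of 12 P granule genes, 3 were called higher and 5 lower.

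Oocyte and eggshell genes also overlapped in sum, at 21698, 18050.4 and 20444 CPM, against 19879, 23118 and 21387 CPM. Of 27 tested, 8 were called higher (29.6%) and 4 lower (14.8%), beside 31% and 33.4% of all genes tested. *rme-2*, the yolk receptor of oocytes, had 1196, 981 and 1097 CPM, against 1118, 1303 and 1163 CPM, and was not called. Its log2 fold change was -0.14 (SE 0.10, edgeR quasi-likelihood adjusted p = 0.244). The extremes were eggshell genes in both directions. *perm-2* and *perm-4*, of the permeability barrier, had 470.5, 457 and 582 CPM and 760.0, 671 and 822 CPM in the deletion set, against 941, 1095 and 960.1 CPM and 1369.7, 1517 and 1364 CPM in the nonsense and revertant set. *gna-2*, which supplies the sugar precursor of eggshell chitin, had 178, 165 and 172 CPM, against 94.4, 93.3 and 92.2 CPM. *spn-4*, a maternal RNA-binding regulator of the embryo, had 1149.7, 975 and 1055 CPM, against 724, 765 and 743 CPM.

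Yolk genes were slightly lower in the deletion set, with sums over the 6 vitellogenins of 41299, 41423 and 46155 CPM, against 47234, 58929 and 54123 CPM. The 3 genes called lower were *vit-1*, *vit-6* and *vit-4*. *vit-6* had 8454, 8808 and 9899.9 CPM, against 13377, 17391 and 15860.5 CPM (log2 fold change -0.79, SE 0.13, edgeR quasi-likelihood adjusted p = 1.78e-04), and *vit-1* had 2048, 1746 and 2278 CPM, against 3359, 4107 and 3732 CPM. *vit-4* had a log2 fold change of -0.38 and was not called without replicate 1 of the deletion set or replicate 2 of the other set (edgeR quasi-likelihood adjusted p = 0.0507 and 0.0563). *vit-2* had 10524, 11164 and 11666 CPM, against 10939, 13405 and 12755 CPM, which overlapped and was not called (log2 fold change -0.16, edgeR quasi-likelihood adjusted p = 0.278).

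Sperm genes were lower by less than 2-fold in most cases. The 31 genes of the major sperm protein, on which sperm crawl, summed to 1847, 1348 and 1689.5 CPM, against 1939, 2337 and 2317 CPM. Of 30 tested, 23 were called lower, 1 of them by at least 1, and none higher. Their transcripts are short, with a median length of 454 bases, and the median log2 fold change of -0.43 became -0.21 on length-scaled counts. *msp-152* had 98.4, 76.4 and 96.2 CPM, against 142, 189 and 189 CPM, *msp-50* had 57.9, 41.6 and 51.3 CPM, against 84.6, 98.7 and 99.7 CPM, and *msp-76* had 67.5, 50.3 and 64.3 CPM, against 81.8, 114 and 112 CPM. *msp-63* had a log2 fold change of -0.99. Among other sperm genes 38 of 58 were called lower and 3 higher. Small sperm proteins and phosphatases (24 lower of 27, median -0.77) held more of the lower calls than the *spe* and *fog* genes (14 lower of 31, median -0.37). *gsp-3*, a sperm phosphatase with a transcript of 1108 bases, had 25.7, 19.4 and 24.8 CPM, against 36.4, 41.6 and 40.8 CPM (log2 fold change -0.77, SE 0.10, edgeR quasi-likelihood adjusted p = 1.67e-05) and -0.78 on length-scaled counts. *ssp-37* had 1.91, 1.38 and 1.74 CPM, against 7.37, 9.49 and 7.53 CPM, and *msd-4* had 37.96, 26.99 and 34.2 CPM, against 70.4, 83.8 and 96.3 CPM. The lowest of the list was *F44D12.7*, one of 2 genes called msd-1, with a transcript of 330 bases. It had 0, 0 and 0.265 CPM, against 10.5, 13.4 and 21.3 CPM, with few reads in the deletion set. *E03H12.10*, a small sperm protein gene, was 2.46-fold lower.

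Genes switched on in early embryos were the list with the highest median. Summed over 46 genes they reached 88.9, 98.0 and 90.2 CPM in the deletion set, against 56.0, 54.1 and 54.8 CPM in the nonsense and revertant set. Of 38 tested, 28 were called higher, 18 (47.4%) by at least 1, and 2 lower, with a median log2 fold change of 1.09 (1.10 on length-scaled counts). The *sdz* genes take their name from their dependence on SKN-1, a maternal factor of the early embryo. *sdz-28* had 3.53, 5.15 and 4.39 CPM, against 0.9, 0.878 and 0.795 CPM (log2 fold change 2.34, SE 0.18, edgeR quasi-likelihood adjusted p = 2.05e-07). *sdz-25* had 2.55, 3.53 and 3.62 CPM, against 0.987, 1.11 and 1.1 CPM, and *sdz-33* and *sdz-14* were 2.92- and 2.41-fold higher. The 2 genes called lower, named after their values were seen, were also *sdz* genes. *sdz-8* had 1.54, 0.905 and 1.21 CPM, against 2.21, 2.42 and 2.74 CPM, and *sdz-6* had 0.246, 0.199 and 0.3 CPM, against 0.406, 0.496 and 0.641 CPM.

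**Figure D4:**
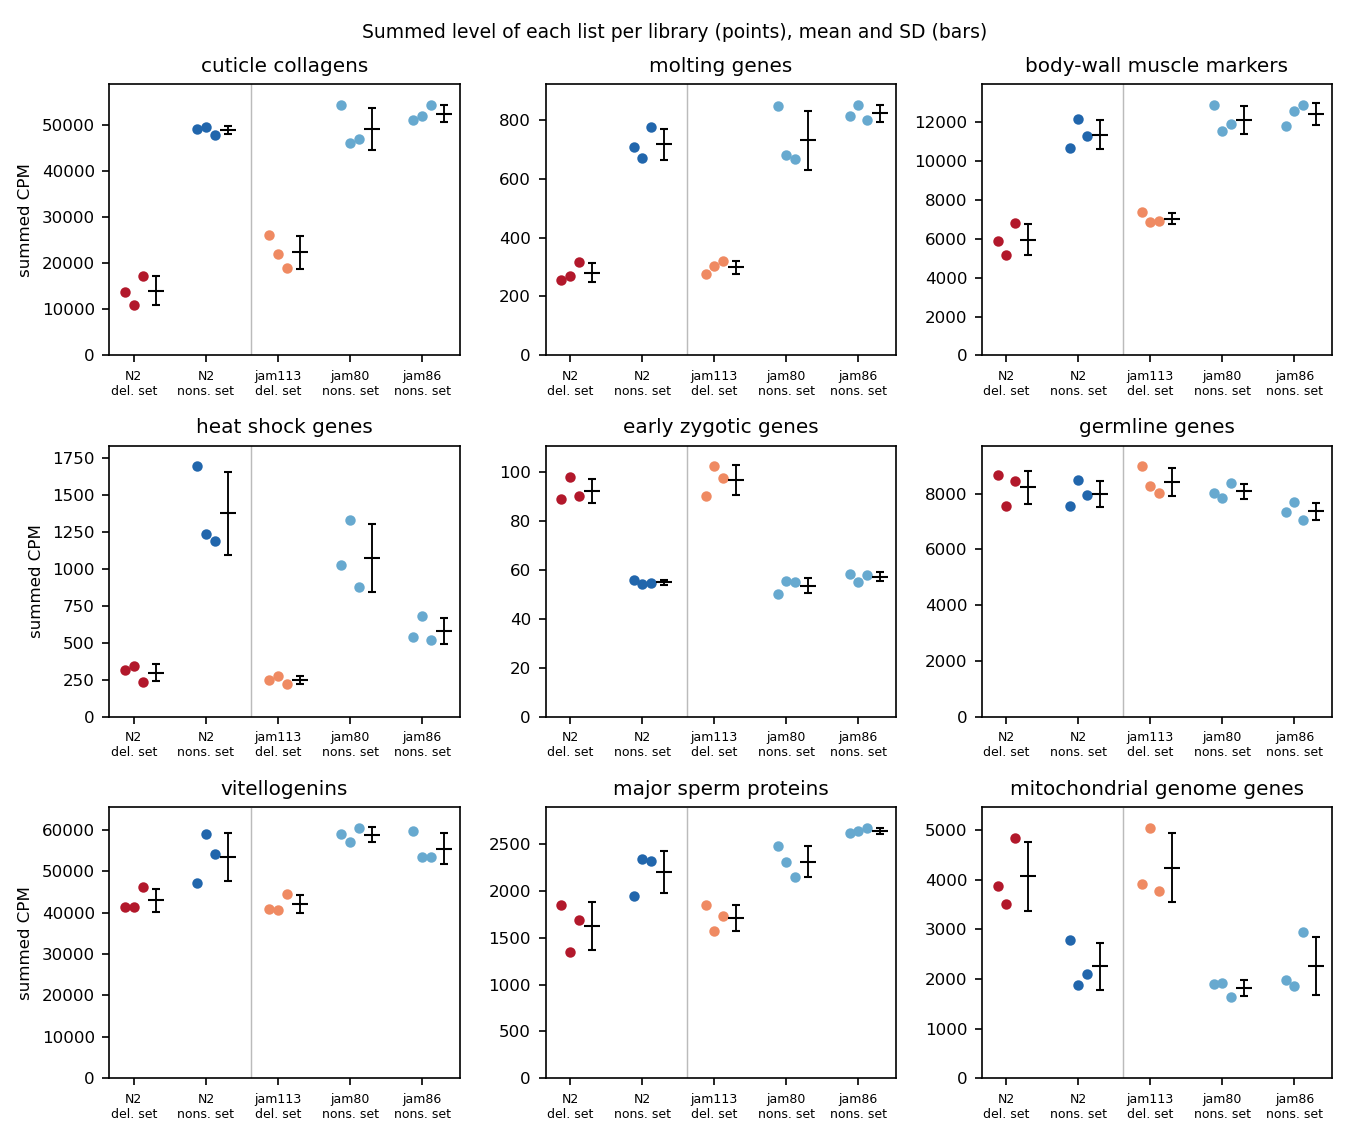
Summed CPM of 9 gene lists in each library (points) of N2 of the deletion set, N2 of the nonsense and revertant set, *sid-1(jam113)* of the deletion set, and *sid-1(jam80)* and *sid-1(jam86)* of the nonsense and revertant set, with the mean and SD of each group (bars, n = 3). Collagens lay at 10968 to 17249 CPM in N2 of the deletion set and at 47844 to 49545 CPM in N2 of the nonsense and revertant set, and germline genes overlapped between the wild types.

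Heat shock genes had the lowest median of the 36 lists. The list holds heat-inducible chaperones of the *hsp-16* and hsp70 classes, which act on proteins damaged by stress, and 4 *hsp-12* genes. The 12 genes summed to 317, 342 and 234 CPM in the deletion set, against 1693, 1236 and 1189.8 CPM in the nonsense and revertant set, 4.61 times lower on the means. All 7 tested genes of the *hsp-16* and hsp70 classes were called lower by at least 1, with a median log2 fold change of -2.43. The 4 *hsp-12* genes included 1 called higher and 2 lower, with a median of -0.12. *F44E5.5*, an hsp70 gene with a near-identical neighbour, had 84.9, 80.0 and 53.5 CPM, against 725, 586 and 537 CPM (log2 fold change -3.09, SE 0.16, edgeR quasi-likelihood adjusted p = 1.01e-08). *hsp-70* had 8.53, 10.9 and 5.6 CPM, against 85.2, 58.8 and 48.5 CPM, and the small heat shock gene *hsp-16.2* had 7.74, 8.5 and 4.79 CPM, against 48.5, 31.1 and 32.9 CPM. Within each set 1 library stood off from its partners, replicate 3 at the low end of the deletion set and replicate 1 at the high end of the nonsense and revertant set, without closing the gap. *T27E4.2*, one of 2 genes called hsp-16.1, had a log2 fold change of -2.59. The rise was in *hsp-12.6*, named after its values were seen, with 1.5, 3.27 and 1.44 CPM, against 0.871, 0.725 and 0.773 CPM.

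Genes that respond to food and lipid stores were called in both directions, 7 higher (53.8%) and 6 lower (46.2%). Of all genes tested, 31% were called higher and 33.4% lower. All 5 lysosomal lipase genes were called higher, 4 of them by at least 1. *lipl-2* had 57.5, 76.3 and 53.9 CPM, against 5.63, 4.79 and 6.43 CPM (log2 fold change 3.48, SE 0.14, edgeR quasi-likelihood adjusted p = 2.06e-09), and *lipl-1* had 43.2, 38.6 and 36.5 CPM, against 7.66, 8.9 and 10.1 CPM. The 3 fatty acid desaturase genes were called lower, each by at least 1. *fat-5* had 4.69, 3.31 and 4.47 CPM, against 24.8, 26.5 and 22.8 CPM. *acs-2*, an acyl-CoA synthetase of mitochondrial fat oxidation that is induced by fasting, had 19.3, 24.4 and 20.5 CPM, against 95.3, 142 and 132 CPM. *acdh-1* and *hphd-1*, enzymes of a propionate breakdown route that is used when vitamin B12 is low, were also lower and, named after their values were seen, had log2 fold changes of -1.45 and -1.68. *cpt-3*, a carnitine palmitoyltransferase gene of low level, named after its values were seen, had 1.42, 2.33 and 1.66 CPM, against 0.116, 0.134 and 0.177 CPM. No member of this list overlapped between the sets (13 of 13), beside 69.1% of all genes tested without overlap. The list was chosen with earlier results of these data known, so this share is no test of the family.

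Osmotic and epidermal defence genes were lower where called, with a median log2 fold change of -0.95 (-0.68 on length-scaled counts). *gpdh-1*, which makes the osmolyte glycerol under high salt, had 0.504, 0.337 and 0.426 CPM, against 3.28, 3.36 and 4.55 CPM, and the inositol transporter gene *hmit-1.1* had 1.16, 0.721 and 0.588 CPM, against 5.28, 5.33 and 5.39 CPM. Of 14 antimicrobial peptide genes 11 were called lower and none higher. *cnc-4*, a caenacin, had 5.64, 6.61 and 5.76 CPM, against 21.05, 23.02 and 24.9 CPM (log2 fold change -1.95, -1.72 on length-scaled counts), and *nlp-30* had 4.33, 4.34 and 4.59 CPM, against 11.8, 12.7 and 14.8 CPM.

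Gut defence and digestion genes had calls in both directions, as had all genes tested (31% higher and 33.4% lower). Of 35 lysozyme and saposin-like genes tested, 15 were called higher (42.9%) and 8 lower (22.9%). Their median log2 fold change was 0.12 (0.35 on length-scaled counts). The sum over the family was nevertheless lower, at 3707, 3472 and 3600 CPM, against 4187, 4458 and 4462.5 CPM. *spp-2* had 156, 170.0 and 149 CPM, against 30.9, 34.1 and 35.02 CPM (log2 fold change 2.24, SE 0.08, edgeR quasi-likelihood adjusted p = 9.74e-10), and *spp-17* had 159, 141 and 156 CPM, against 454, 482 and 441 CPM. *spp-18* rose and *spp-23* fell, with log2 fold changes of 1.54 and -2.24. Among cathepsin B and aspartic proteases, 4 of 18 were called higher (22.2%) and 7 lower (38.9%). *cpr-1* had 1201, 1253 and 1213 CPM, against 523, 585 and 631 CPM, whereas *cpr-5* had 312, 335 and 368 CPM, against 572, 647 and 678 CPM. *cpr-3* rose and *asp-13* fell, with log2 fold changes of 1.21 and -0.75. C-type lectins, secreted or membrane proteins many of which respond to microbes, were tested in 136 of 237 cases, with 31 called higher (16 by at least 1) and 61 lower (28). *clec-196* had 3.8, 4.49 and 4.07 CPM, against 0.929, 0.954 and 0.818 CPM, and *clec-178* had 0.775, 0.337 and 0.588 CPM, against 2.44, 2.27 and 2.43 CPM. *clec-76* and *clec-82* were higher by 3.33- and 3.2-fold. The *pals* genes, a family induced in the response to intracellular pathogens, were below the filter in 20 of 38 cases, and 5 of 18 tested were called higher and 1 lower. *pals-24* had 4.72, 7.25 and 4.8 CPM, against 3.69, 2.58 and 3.01 CPM, and its neighbour *pals-25* had 3.52, 3.83 and 3.38 CPM, against 2.76, 2.16 and 2.83 CPM, which was not called without replicate 2 of the nonsense and revertant set (edgeR quasi-likelihood adjusted p = 0.0769).

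Among the large families of substrate adaptors for ubiquitin ligases, F-box A and *bath* genes had more calls higher than lower in the deletion set. Of all genes tested, 31% were called higher and 33.4% lower. F-box A genes summed to 764, 768 and 709 CPM, against 469, 421 and 432 CPM, and of 124 tested (of 170) 58 were called higher (32, 25.8%, by at least 1) and 11 lower. Of those tested, 7 had reads in every library of 1 set but not of the other. Such genes can pass the filter through 1 set alone. *fbxa-24* had 22.99, 35.9 and 27.2 CPM, against 2.73, 2.39 and 3.4 CPM (log2 fold change 3.33, SE 0.17, edgeR quasi-likelihood adjusted p = 1.01e-08), and *fbxa-192* had 17.7, 17.2 and 17.8 CPM, against 6.65, 5.27 and 4.99 CPM. *fbxa-72* went the other way, with 3.86, 3.02 and 4.21 CPM, against 22.6, 17.96 and 18.6 CPM, and *fbxa-219* was 3.01-fold higher. Genes with both a MATH and a BTB domain (*bath*), which act as adaptors of cullin ligases, were higher in 27 of 34 tested cases and lower in none, with a median log2 fold change of 1.07. Genes with MATH domains only (*math*) were called in both directions, as were all genes tested. They were higher in 7 and lower in 6 of 23, with a median of 0.14. *math-34* had 2.03, 2.52 and 1.6 CPM, against 0.232, 0.115 and 0.199 CPM, *math-38* had 1.95, 2.81 and 1.71 CPM, against 0.465, 0.267 and 0.398 CPM, and *bath-10* had 1.93, 2.18 and 2.26 CPM, against 0.552, 0.477 and 0.641 CPM. *math-45* had a log2 fold change of 2.03. Of the *math* genes called lower, *math-15*, *math-3* and *math-26*, named after their values were seen, had log2 fold changes of -1.26, -1.22 and -1.19.

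Detoxification enzymes were called in both directions, family by family, beside 31% of all genes tested called higher and 33.4% lower. Cytochrome P450 genes, the first-phase monooxygenases, summed to 728, 771 and 706 CPM, against 588, 571 and 567.1 CPM, with 32 of 67 tested called higher and 18 lower. The *cyp-34A* subfamily had 5 higher and 1 lower of 8, with a median log2 fold change of 2.29, beside 0.17 for the other 59. *cyp-34A2* had 17.6, 25.996 and 21.8 CPM, against 1.86, 2.0 and 1.5 CPM (log2 fold change 3.60, SE 0.16, edgeR quasi-likelihood adjusted p = 3.87e-09), and *cyp-34A9* had 37.004, 67.7 and 39.1 CPM, against 7.75, 7.35 and 7.45 CPM. *cyp-37B1* and *cyp-34A10* were 7.2- and 6.08-fold higher. UDP-glucuronosyltransferases, which conjugate sugars to substrates, went mostly down, with 32 of 63 called lower and 10 higher. *ugt-66* had 0.246, 0.261 and 0.253 CPM, against 5.75, 7.14 and 6.43 CPM, and *ugt-26* had 8.1, 6.66 and 7.22 CPM, against 36.5, 32.6 and 35.1 CPM. *ugt-63* had 3.3, 1.69 and 3.23 CPM, against 19.1, 17.6 and 16.04 CPM. The largest rise among them was *ugt-18*, with 2.17, 5.58 and 2.55 CPM, against 0.203, 0.0573 and 0.265 CPM. Glutathione S-transferases were called higher in 15 (37.5%) and lower in 10 (25%) of 40 cases. Their sum was nevertheless lower, at 749.6, 638 and 698 CPM, against 906, 918 and 948 CPM. The stress-inducible *gst-4* had 3.28, 3.17 and 4.08 CPM, against 11.1, 7.94 and 8.31 CPM. *gst-16*, *gst-12* and *gst-15* rose by 1.67, 1.33 and 1.30 on the log2 scale.

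Regulators and hormones were called in both directions, as were all genes tested (31% higher and 33.4% lower). Nuclear hormone receptors, one of the largest transcription factor families of the worm, had 54 of 199 called higher (27.1%) and 39 lower (19.6%). Their median log2 fold change was 0.11. *nhr-114*, a receptor of gut and germline tied to the response to diet, had 9.69, 10.8 and 11.4 CPM, against 78.3, 82.0 and 74.1 CPM (log2 fold change -2.88, SE 0.08, edgeR quasi-likelihood adjusted p = 1.52e-10). *nhr-137* had 1.68, 2.33 and 1.54 CPM, against 10.2, 8.82 and 8.0 CPM, while *nhr-99* had 7.5, 9.88 and 7.48 CPM, against 1.89, 1.72 and 2.21 CPM. *nhr-11* was lower by 2.84-fold. Insulin-like peptides, ligands of the single insulin receptor DAF-2, were called higher in 9 and lower in 9 of 28 cases. These shares, 32.1% each, were near those of all genes tested. The median log2 fold change of the family was -0.24 (-0.08 on length-scaled counts). *ins-7* had 4.1, 3.47 and 3.61 CPM, against 1.36, 0.897 and 0.928 CPM, whereas *daf-28* had 1.16, 0.629 and 1.43 CPM, against 3.77, 3.59 and 2.85 CPM. Both are described as agonists of DAF-2, and they moved in opposite directions here. *ins-35* and *ins-33* were lower, with log2 fold changes of -2.49 and -1.38.

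Ribosomal protein genes carried a large share of the RNA in every library. They summed to 109790, 93256 and 105040 CPM in the deletion set, against 152939, 162843 and 163202 CPM in the nonsense and revertant set, and 68 of 79 were called lower (16 by at least 1) and 2 higher. The median log2 fold change was -0.62, and -0.55 on length-scaled counts. The lowest were *rpl-11.2* (269, 281 and 348 CPM, against 887, 911 and 970.1 CPM), *rps-22*, *rpl-25.1* and *rla-2*, lower by 3.09-, 2.99-, 2.85- and 2.84-fold. Protein-coding genes of the mitochondrial genome went the other way, at 3863, 3503 and 4839 CPM, against 2784, 1880.4 and 2095 CPM, and 11 of 12 were called higher and none lower. *MTCE.26* had 1673, 1653 and 2136 CPM, against 1097, 716 and 796 CPM, and *COX3*, a subunit of cytochrome oxidase, had 593, 516 and 724 CPM, against 402, 245 and 276 CPM. The largest ratio was *ND6* (position 113 to 549 of the mitochondrial genome), with 4.42, 1.66 and 1.45 CPM, against 0, 0.0382 and 0.0442 CPM, a rise that rests on few reads in the nonsense and revertant set, as did *MTCE.16* (3.61, 1.67 and 0.864 CPM, against 0.232, 0.0382 and 0.309 CPM). Histone genes, most of whose mRNA lacks a polyA tail, overlapped in sum (1188, 1058 and 1177 CPM, against 1091, 1089.7 and 1098 CPM). Of 52 tested, 6 were called higher (11.5%) and 21 lower (40.4%), beside 31% and 33.4% of all genes tested. Their median of -0.17 was 0.00 on length-scaled counts. *his-41*, *his-38*, *his-14* and *his-70* were lower, by 2.09-, 3.0-, 2.72- and 2.17-fold, with log2 fold changes of -0.92, -1.41, -1.15 and -0.96 on length-scaled counts. Small nematode-specific peptides, with a median transcript of 338 bases, were called lower in 34 of 39 cases and higher in none (median -1.20, and -0.98 on length-scaled counts). *nspe-7* had 0.737, 0.307 and 0.565 CPM, against 11.2, 11.2 and 8.29 CPM, *nspe-1* had 3.86, 3.07 and 4.69 CPM, against 29.99, 22.7 and 21.99 CPM, *nspb-11* had 0.633, 0.521 and 0.841 CPM, against 4.24, 4.62 and 4.62 CPM, and *nspb-10* was 6.38-fold lower.

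The genes with the largest ratios outside these families were mostly uncharacterized. Higher in the deletion set were *T07G12.5* (chromosome IV, 10541428 to 10545138), with 11.02, 17.99 and 12.01 CPM, against 0.377, 0.305 and 0.486 CPM, and *Y65B4BR.1* (chromosome I, 562736 to 565184), with 28.95, 30.7 and 26.96 CPM, against 0.987, 0.974 and 1.37 CPM (log2 fold change 4.69, SE 0.13, edgeR quasi-likelihood adjusted p = 1.52e-10). *F47B8.4*, *C32H11.11* and the pseudogene *C08E3.5* rose by 4.89, 3.76 and 4.53 on the log2 scale, although DESeq2 did not call *C32H11.11* (adjusted p = 0.156). Lower in the deletion set were several genes with short transcripts. *T04C10.11*, whose transcript of 162 bases is shorter than the fragments of the deletion set, had 0 reads in each deletion-set library, against 2.58, 4.07 and 5.06 CPM in the nonsense and revertant set, at least 257-fold lower against a floor of 3 counts over the 3 libraries. *C02E7.7* and its neighbour *C02E7.6*, of 301 and 324 bases, had 1.73, 2.12 and 3.65 CPM and 6.28, 8.1 and 12.6 CPM in the deletion set, against 87.2, 86.8 and 86.4 CPM and 156, 151.99 and 154 CPM in the other set. Their log2 fold changes of -5.10 and -4.09 became -4.83 and -3.82 on length-scaled counts. *T24D1.7*, with a transcript of 359 bases, had 0.0388, 0 and 0 CPM, against 3.11, 5.76 and 6.23 CPM. Among longer ones, *F53F1.4* had 14.3, 12.1 and 22.4 CPM, against 284, 294 and 289 CPM, and *Y47D7A.13* had 9.23, 10.2 and 18.3 CPM, against 224, 195 and 186 CPM.

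The other strains of the sets were compared in the same way. *sid-1(jam113)* libraries were compared with those of *sid-1(jam80)* and *sid-1(jam86)*, 9 libraries that the wild-type comparison does not use, and 10997 of 16988 genes tested (64.7%) were called by edgeR's quasi-likelihood test. Genotype and set cannot be told apart in that comparison. Of 10766 genes called in the wild types and tested in both, 10422 (96.8%) had the same direction, beside 88.4% of all 16657 genes tested in both. Across those genes the log2 fold changes had a Pearson r of 0.87 and a Spearman rho of 0.89, where genes are not independent and the libraries of a set share their culture, extraction and fragment length. Median log2 fold changes in the other strains were -1.48 for cuticle collagens, -1.49 for molting genes, -1.12 for hedgehog-related genes, -0.78 for body-wall muscle markers, -1.71 for heat shock genes, 0.26 for germline genes and 0.83 for early zygotic genes. Each had the sign found in the wild types. Of the 36 lists, 2 did not, histones with a median of 0.28 and nuclear hormone receptors with -0.04. *col-41* had a log2 fold change of -3.99, *fbn-1* of -1.74 and *sdz-28* of 1.84 between those strains.

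Summed levels in those strains are given for 4 lists. Collagens summed to 18903 to 26085 CPM in *sid-1(jam113)*, against 45910.4 to 54230.4 CPM in *sid-1(jam80)* and 50896 to 54342 CPM in *sid-1(jam86)*. The *sid-1(jam113)* libraries were all above the deletion-set N2 libraries. Early zygotic genes were at 90.1 to 102.4 CPM in *sid-1(jam113)*, against 50.1 to 55.5 CPM in *sid-1(jam80)* and 55.0 to 58.5 CPM in *sid-1(jam86)*. UGT genes were at 442 to 592 CPM in *sid-1(jam113)*, above the deletion-set N2 libraries (411 to 423 CPM) and overlapping 550.4 to 649.6 CPM in *sid-1(jam80)*. Heat shock genes differed between strains within a set, at 221 to 276 CPM in *sid-1(jam113)*, against 876 to 1325 CPM in *sid-1(jam80)* and 516 to 684 CPM in *sid-1(jam86)*. All 3 revertant libraries were thus below the 3 N2 libraries of their own set for heat shock genes and above both strains of the deletion set.

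**Figure D5:**
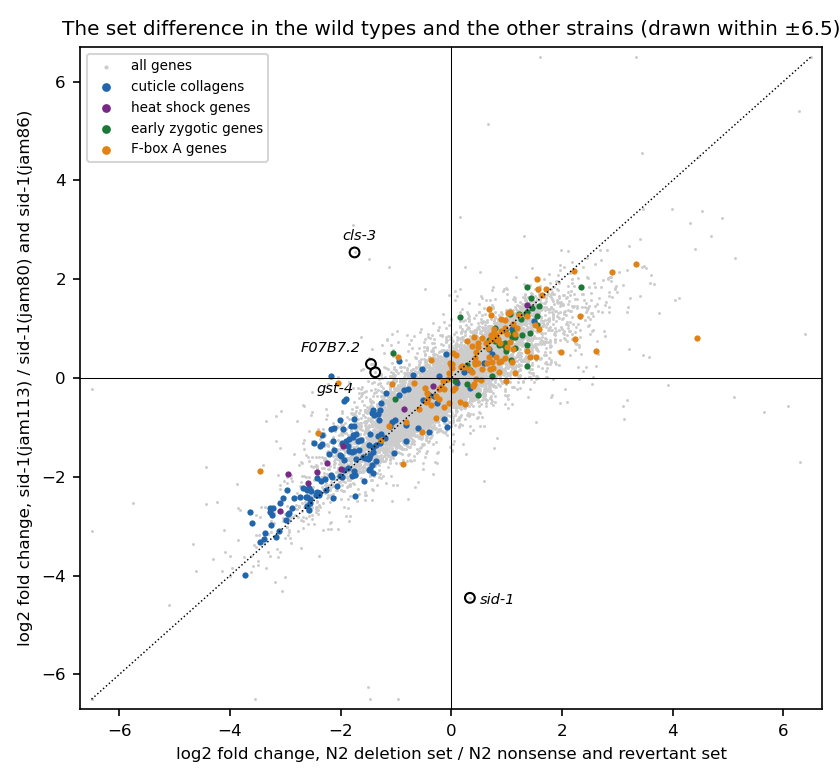
Log2 fold change between the wild types (x axis, deletion set over nonsense and revertant set) and between *sid-1(jam113)* and the *sid-1(jam80)* and *sid-1(jam86)* libraries (y axis) for all genes tested in both (grey), with 4 gene lists in colour, 4 genes circled and points drawn within 6.5 of 0. Most genes lie near the dotted line of equal change (Pearson r 0.87 across genes), and *cls-3*, *F07B7.2*, *gst-4* and *sid-1* lie away from it.

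A test of the difference between the 2 set differences, added after the data were seen, called 114 of 17277 genes (0.66%) by edgeR's quasi-likelihood test, and 2139 had an unadjusted p under 0.05. *sid-1* itself, the gene deleted in *sid-1(jam113)*, had 47.1, 48.1 and 44.7 CPM in the deletion-set wild type, against 37.7, 37.8 and 34.8 CPM in the other wild type (log2 fold change 0.34, edgeR quasi-likelihood adjusted p = 7.46e-04), and -4.45 between the other strains. *F07B7.2* (*sdg-1*), whose reads are shared with its copy *W09B7.2*, had 1.14, 1.26 and 1.26 CPM, against 3.02, 3.3 and 3.6 CPM, and *cls-3*, which codes for a microtubule-binding CLASP protein, had 10.4, 13.4 and 10.6 CPM, against 35.3, 38.9 and 40.5 CPM. Both were lower in the deletion-set wild type without overlap. Between the other strains *cls-3* was higher in *sid-1(jam113)*, by 2.54 on the log2 scale (edgeR quasi-likelihood adjusted p = 8.27e-11), and *F07B7.2* was not called (0.28, edgeR quasi-likelihood adjusted p = 0.494). By RNA sequencing, the paper reports *sdg-1* above wild type in *sid-1(jam113)*, *sid-1(jam80)* and *sid-1(jam86)*. The comparison between the other strains therefore sets strains reported as raised beside each other. *Y102A5C.36* (*sdg-2*) had 8.56, 6.61 and 6.51 CPM, against 4.73, 5.1 and 4.62 CPM (log2 fold change 0.58, 0.80 on length-scaled counts).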

How the data were processed

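PolyA+ RNA of mixed-stage *C. elegans* was sequenced by the authors, who per the submitters' notes trimmed reads with cutadapt and quantified transcripts with Salmon. The deposited values are estimated counts per transcript (NumReads), which the authors made without normalization, beside TPM, transcript lengths and effective lengths. The deposited TPM and effective lengths were used for fragment length and for length-scaled counts. The authors' table of transcripts and genes came from an earlier Ensembl release than the one used here, and Salmon's version is not given in the sources used here.

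Estimated counts were summed per gene with the Ensembl release 115 annotation (WBcel235) and rounded to whole numbers. Of 35749 transcripts, 31176 matched by identifier and 4485 by sequence name. The other 88 held at most 0.00896% of the counts of a library and were kept under their own sequence names. Genes with at least 0.1 CPM in 3 libraries were tested with edgeR 4.0.16 (R 4.3.3), using TMM normalization and the quasi-likelihood test, with the 6 wild-type libraries in the fit and Benjamini-Hochberg adjustment over all genes tested. The principal components used the 500 most variable genes. The script was tested on simulated data. Replicates differed by more than sampling noise (chi-square per degree of freedom 8.08 to 24.96). Each was counted as 1 sample because the methods of the study describe biological replicates.

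The genes named were, in each direction, the 10 with the largest change and, per list, up to 4, called, with no overlap between the sets and a mean of at least 1 CPM, plus defining markers. For a list with fewer than 2 such calls, the 2 members with the highest mean were named. Members and gene lists were chosen with earlier results of these data known. Alternatives were DESeq2 1.42.0, limma 3.58.1 (voom), upper-quartile scaling, other filters, length-scaled counts, thinning, a replicate block, a fit of all 15 plate libraries and leaving out each replicate. The comparison of set differences and the restriction to longer transcripts were chosen after seeing the data. Libraries from liquid cultures were not used here.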

Additional observations from a re-analysis of the deposited data

Results flagged for a closer look

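In 8 named genes the difference between the sets was not the same in the wild types as in the other strains, by a test of that difference in 1 fit of the 15 plate libraries (edgeR quasi-likelihood). Each value below is the log2 fold change of the deletion set over the nonsense and revertant set in the wild types minus that in the other strains. For *sid-1* it was 4.73 (edgeR adjusted p = 1.89e-13), and *sid-1(jam113)* carries the deletion of that gene. For *cls-3* it was -4.283 (edgeR adjusted p = 1.46e-12), with wild types at -1.75 and the other strains at 2.54. For *F07B7.2* it was -1.889 (edgeR adjusted p = 0.00103). The remaining 5 genes were lower in the deletion set by more in the wild types than in the other strains. The difference was -2.119 for *ugt-63*, a sugar transferase gene (edgeR adjusted p = 0.00521), and -1.491 for the desaturase gene *fat-5* (edgeR adjusted p = 0.00365). It was -1.708 for *nspe-7* and -1.361 for *nspe-1*, which code for small nematode-specific peptides (edgeR adjusted p = 0.0161 and 0.00649). For the glutathione S-transferase gene *gst-4* it was -1.497 (edgeR adjusted p = 0.0442), and *gst-4* was not called between the other strains, with a log2 fold change of 0.12. A shift shared by all strains of a set cancels in this difference, and *sid-1* is absent from *sid-1(jam113)* by its deletion. For the other genes, the genotype of a strain and its own cultures cannot be told apart.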

How the results depend on the processing

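The number of genes called between the wild types, 10797, was 10173 with DESeq2, 10800 with limma voom, 10860 with upper-quartile scaling and 9675 to 10709 with 1 replicate left out. A log2 fold change of at least 1 reduced it to 3170, 1159 higher and 2011 lower, since that alternative is stricter by construction. Between the other strains the count was 9858 to 11024 over its alternatives. Of 575 list medians under the alternatives, 516 stayed within the spread between replicates, 57 moved and 2 reversed. On length-scaled counts the major sperm protein median was -0.207, and the medians of neuropeptides and histones reversed or reached 0, at 0.026 and 0.000. With upper-quartile scaling the germline median was 0.043 and the ribosomal median -0.714. Leaving out 1 replicate gave medians of 0.908 to 1.302 for early zygotic genes, -2.030 to -1.673 for cuticle collagens and -1.285 to -1.085 for hedgehog-related genes. The log2 fold change of *rab-3*, not called, was -0.0285 with upper-quartile scaling and -0.0216 to 0.1971 with 1 replicate left out, and that of *pgl-1*, not called, was -0.0719 to 0.0033. With upper-quartile scaling *vit-2* and *rme-2* were called lower (edgeR adjusted p = 0.0488 and 0.0285) and *cut-5* was not called (0.0583). *cut-3* was not called in the fit of 15 libraries (0.148). The cause of these shifts was not tested.

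The sets share replicate numbers, but same-numbered libraries did not deviate together (correlations 0.010, 0.014 and 0.043 across genes). A fit with the replicate block called 10661 genes, and under it *vit-4* was not called (edgeR adjusted p = 0.0975). The fragment length differs between the sets in every library, which limits values of the shortest transcripts, and genes under the filter on low counts were not tested.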
